A study of Danio rerio with 4 samples.

Results

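Flat plateaus of H3K27ac are wide acetylated sites whose highest signal stands little above their mean signal. They were chosen from the peak lists of 4 CUT&Tag libraries of zebrafish hearts. Peaks of all lists that overlapped were merged into 51678 sites, of which 17511 were called in all 4 lists and 11691 of these lay on chromosomes 1 to 25, outside the part of chromosome 4 from 30 Mb on, and were between 2500 and 10000 bp wide. In each list the highest signal within a site was divided by its mean signal per covered base, and a site was taken as a plateau where this ratio was at or below 2.5 in all 4 lists. The rule found 85 plateaus, 0.727% of the sites of this width, and the remaining 11606 are called other sites of this width. Ratio, maximum, mean signal, width and presence in every list therefore chose the plateaus, and values of these measures are a description. The difference between groups in mean signal is a description too: calls of the fit over all sites are given beside it, and nothing is read from them for the plateaus.

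H3K27ac, acetylation of a lysine in the tail of histone H3 by the coactivators p300 and CBP, marks active enhancers and promoters. At such elements the signal is usually highest on the nucleosomes that flank a bound, nucleosome-free stretch, and it spreads over wider domains where active elements lie close together. AP-1, a dimer of Jun and Fos family proteins, binds many enhancers that become active after injury, and a dominant-negative form of it (dnAP-1) blocks that activity. Epicardial cells and fibroblasts (Epi/FBs) are among the nonCMs, the heart cells other than cardiomyocytes, that gather at a cardiac wound.

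CUT&Tag tethers a transposase to an antibody on chromatin, so that the DNA around the bound histone is cut and tagged. All 4 libraries were made from nonCMs of the injury area of adult hearts 7 days after resection of the ventricular apex. The 2 FB:dnAP-1 libraries came from fish that carry TgBAC(tcf21:Cre-ERT2) and a second transgene with loxp-dsRed-loxp-Flag-dnAP-1 behind the ubb promoter, given 4-HT, which turns on dnAP-1 in the tcf21-expressing Epi/FBs. The 2 CTRL libraries are labelled as control and wild type only, while the methods describe controls of inducible lines as double transgenic fish given the ethanol vehicle. Each library mixes the nonCMs of that area, and dnAP-1 was driven in Epi/FBs alone, so that fewer acetylated cells of a type and less acetylation per cell cannot be told apart. The study calls the libraries of a group biological duplicates, but the number of hearts behind each is not given in the sources used here, and p-values measure the spread between these libraries. The labelled cell fraction could not be checked against marker genes, as a GRCz11 annotation was not used.

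The lists held 38429 and 32978 peaks in replicates 1 and 2 of FB:dnAP-1, and 32638 and 33076 peaks in CTRL replicates 1 and 2. They give signal, which is coverage after scaling of each library, and no read totals. Every maximum was a whole multiple of a smallest step, 0.68 in both FB:dnAP-1 lists, and 1.26 and 1.38 in the CTRL lists. This step stands in for depth: a maximum of few steps rests on little coverage. No peak had the same position and values in any 2 of the lists.

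Under the limit of 2.5, the median ratio of maximum to mean of the plateaus was 2.15 and 2.23 in replicates 1 and 2 of FB:dnAP-1, and 2.16 and 2.13 in CTRL replicates 1 and 2. The other sites of this width had median ratios of 4.16 and 4.19 in the FB:dnAP-1 libraries, against 3.47 and 3.17 in CTRL libraries. The limit was thus harder to meet in the FB:dnAP-1 lists, where 933 and 853 sites of this width met it, than in the CTRL lists, where 1610 and 2362 did. The list with the highest ratio was FB:dnAP-1 replicate 1 for 19 plateaus and FB:dnAP-1 replicate 2 for 32, while CTRL replicate 1 set it for 18 and CTRL replicate 2 for 16.

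**Figure D1:**
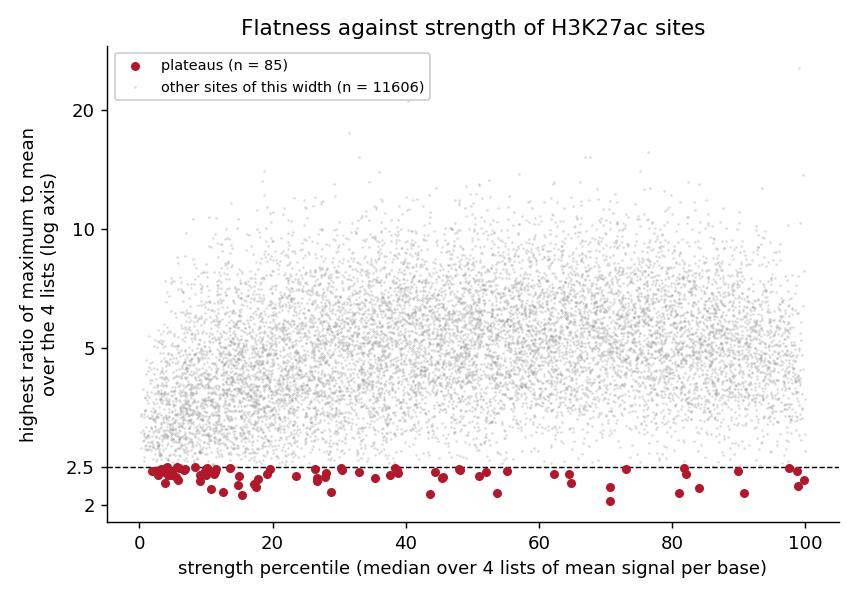
Highest ratio of maximum to mean signal over the 4 lists, against the median percentile of mean signal over the lists, for each site of 2500 to 10000 bp. The 85 plateaus lie at or below the limit of 2.5 and run over the whole range of strength, with most at the weak end.

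The flattest plateau was chr7:2433158-2436838 (GRCz11), with ratios of 1.78 and 2.05 in the FB:dnAP-1 libraries, against 1.86 and 1.94 in CTRL libraries. Its maxima reached 29 and 26 steps in the FB:dnAP-1 libraries, against 21 and 15 steps in the CTRL libraries. The next flattest were chr22:21057687-21060887 and chr9:53203572-53206833, both with a highest ratio of 2.13. At the other end, chr14:11530777-11533932 and chr15:47566710-47572289 lay just inside the limit, at 2.498 in FB:dnAP-1 replicate 2 and at 2.497 in FB:dnAP-1 replicate 1. Just outside lay chr24:4825408-4829418 and chr1:44918606-44923985, at 2.5002 and 2.504 in CTRL replicate 2.

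Of the 85, 23 stayed within the limit with every maximum 1 step of coverage higher, and with every maximum 1 step lower 215 sites met it. Leaving out FB:dnAP-1 replicate 1 or 2 let 191 or 233 sites pass, and leaving out CTRL replicate 1 or 2 let 173 or 203 pass. The median maximum of a plateau was 16 and 15 steps in the FB:dnAP-1 lists, against 12 and 10 steps in the CTRL lists, and the lowest was 9 and 8 against 7 and 5 steps.

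Flatness was shared only in part between libraries. Of the sites that met the limit in one FB:dnAP-1 list, 300 met it in the other as well, which was 32.2% of those of replicate 1 and 35.2% of those of replicate 2. The CTRL lists shared 674 sites, 41.9% of those of replicate 1 and 28.5% of those of replicate 2. Between the 85 plateaus and the 7859 sites that met the limit in no list, 2417, 989 and 341 sites met it in 1, 2 and 3 lists. Strength went down along this order: the median percentile of mean signal was 52.7 for sites flat in no list, 36.5, 27.7 and 20.1 for those flat in 1, 2 and 3 lists, and 19.2 for the plateaus.

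Most plateaus were weak, but a low signal was no common property of them. Strength is given here as the median over the lists of a site's percentile of mean signal among the sites called in all 4. Of the 85, 45 had a percentile under 25 (52.9%, against 25.4% of the other sites of this width). Another 20 were above the 50th percentile, 10 above the 75th and 5 above the 90th. The last is 5.88% of the plateaus, against 6.39% of the other sites of this width.

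Median signal per covered base of the plateaus was 4.84 and 4.61 in replicates 1 and 2 of FB:dnAP-1, and 6.96 and 6.12 in CTRL replicates 1 and 2. It ran between 2.74 and 72.8 and between 2.28 and 48.9 in the FB:dnAP-1 libraries, and between 4.58 and 131 and between 3.15 and 120 in the CTRL libraries. At the other sites of this width the medians were 8.20 and 8.01 in the FB:dnAP-1 libraries, against 8.44 and 7.90 in CTRL libraries. Both FB:dnAP-1 medians lay below both CTRL medians at the plateaus, whereas at the other sites of this width the medians of the groups overlapped. The plateaus thus had 0.590 and 0.576 of the median signal of the other sites of this width in the FB:dnAP-1 libraries, and 0.825 and 0.774 of it in the CTRL libraries, with a mean of 0.691 ± 0.127 (SD, n = 4 libraries). Maxima were further apart, at 10.9 and 10.2 against 37.4 and 37.4 for the other sites of this width in the FB:dnAP-1 libraries, and at 15.1 and 13.8 against 31.5 and 26.2 in the CTRL libraries.

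**Figure D2:**
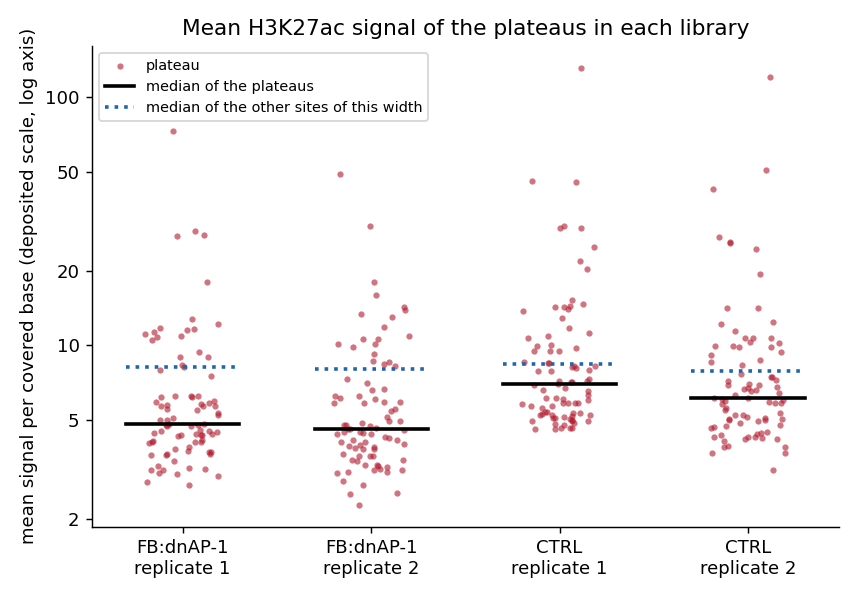
Mean signal per covered base (log axis, deposited scale) in each library, FB:dnAP-1 on the left, for the 85 plateaus and the other sites of this width. The plateau medians of 4.84 and 4.61 in the FB:dnAP-1 libraries are below those of 6.96 and 6.12 in the CTRL libraries.

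The strongest plateau was chr8:35063136-35066489, with a mean signal of 72.8 and 48.9 in the FB:dnAP-1 libraries, against 131 and 120 in CTRL libraries. Next came chr20:55163672-55169902, at 27.9 and 17.9 in the FB:dnAP-1 libraries against 45.4 and 42.8 in the CTRL libraries, and chr12:3206169-3209274, at 27.5 and 15.9 against 45.7 and 51.0. At all 3 of them both FB:dnAP-1 libraries were below both CTRL libraries, as at 27.4% of all sites called in 4 lists. The weakest plateau was chr1:39734017-39740641, with 3.13 and 2.51 in the FB:dnAP-1 libraries, against 4.98 and 4.10 in CTRL libraries. It was followed by chr7:66863092-66867262 (3.20 and 3.14 against 5.16 and 3.68) and chr6:15136397-15143008 (4.06 and 2.84 against 4.79 and 4.19). The groups did not overlap at any of these 3 either, but the maxima of the weakest were only 9 and 9 steps in the FB:dnAP-1 lists and 8 and 6 steps in the CTRL lists. FB:dnAP-1 libraries also lay below both CTRL libraries at 55.0% of the other sites in the weakest 25% of this width, by mean log2 signal.

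The plateaus were narrower than the other sites of this width and more often made of 1 peak. This and the values of maxima, spacing and position that follow are descriptions with no test over sites, since all sites come from the same 4 libraries. The median width of a plateau was 3533 bp (range 2573 to 8266 bp), against 4563 bp. In every list 83 of the 85 were a single peak (97.6%), against 80.6% of the other sites of this width. The exceptions were the strong plateau on chromosome 20 and one on chromosome 22. Peaks covered a median of 77.4% and 88.0% of a plateau in the FB:dnAP-1 lists, and 85.5% and 82.9% in the CTRL lists. For the other sites of this width the covered share was 66.4% and 81.4% in the FB:dnAP-1 lists, and 77.0% and 68.0% in the CTRL lists. The stretch that held the maximum was short in both kinds of site, with a median of 9 and 9 bp at the plateaus in the FB:dnAP-1 lists and of 34 and 59 bp in the CTRL lists, against 4 and 4 bp and 8 and 9 bp at the other sites of this width.

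Where a plateau reached its maximum differed from library to library. The rule did not use the position of the maximum, but it capped how far the maximum stood above the mean. Where no summit stands out, that position is loosely set, so this scatter is linked to the choice. The 4 maxima of a plateau spanned a median of 1003 bp (interquartile range 562.5 to 1642.5 bp), or 28.4% of its width, against 184 bp and 4.12% at the other sites of this width. They fell within 200 bp of each other at 1 of the 85 plateaus, and at 53.5% of the other sites of this width. That plateau was the strongest, chr8:35063136-35066489, whose maxima lay within 0.5 bp. It met the limit with a summit at the same place in all 4 libraries, of 224 and 167 steps in the FB:dnAP-1 lists, against 220 and 178 steps in the CTRL lists. At 43 plateaus (50.6%) they were over 1000 bp apart, against 17.4%. The scatter was present within each group as well as between groups: maxima of the FB:dnAP-1 libraries were a median of 340 bp apart, those of the CTRL libraries 454.5 bp, and those of 1 FB:dnAP-1 and 1 CTRL library between 373.5 and 549 bp. At the other sites of this width the same distances were 36, 90 and between 57.5 and 80 bp. The sites of this width were also split into 4 classes of 25% by the mean of centred log2 signal over the 4 libraries. The span at the plateaus was 1115.5, 788, 811.25 and 913.75 bp in these classes, weakest first, against 648, 172, 136.25 and 134 bp at the others. These classes held 47, 20, 6 and 12 plateaus. The span at the plateaus was widest in the weakest class and showed no steady fall above it, while that at the others fell from class to class. The part of the low maxima in this scatter was not tested.

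**Figure D3:**
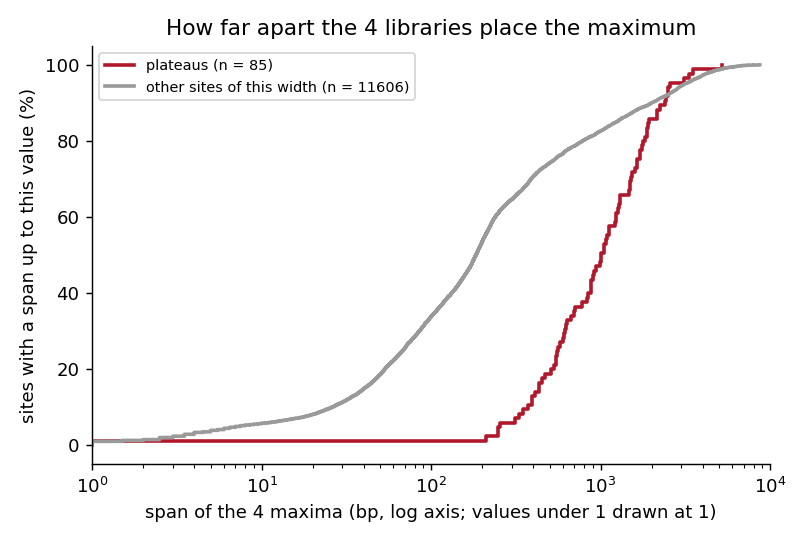
Distance in bp that the maxima of the 4 libraries spanned within a site, for the 85 plateaus and the other sites of this width. The median is 1003 bp at the plateaus and 184 bp at the others.

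In spacing, the plateaus differed from the other sites of this width mainly in the upper part of the range. The nearest site of any list lay a median of 2859 bp away, against 2725 bp, but 26 plateaus (30.6%, against 20.4%) had none within 10 kb. The nearest site called in all 4 lists was a median of 14986 bp away, against 11317.5 bp, and for 22 plateaus (25.9%, against 16.5%) it was over 50 kb away. Among the sites with a peak in a given list the gap was wider. Between edges of merged sites, the nearest such site was a median of 7377 and 8266 bp from a plateau in the FB:dnAP-1 lists. In the CTRL lists it was 7517 and 7314 bp away. At the other sites of this width these medians were 4337 and 4831 bp and 5596 and 5870.5 bp. The plateau medians were 1.70 and 1.71 times those of the others in the FB:dnAP-1 lists and 1.34 and 1.25 times in the CTRL lists, with a mean of 1.5 ± 0.241 (SD, n = 4 lists).

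The most isolated plateau was also the flattest, chr7:2433158-2436838, with 160.652 kb to the nearest site of any list. It was followed by chr9:23992579-23995679 at 69.976 kb and chr22:34848557-34851719 at 62.19 kb. At the near end, 23 plateaus (27.1%) had a site of some list within 1 kb, much like the 28.0% of the other sites of this width.

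**Figure D4:**
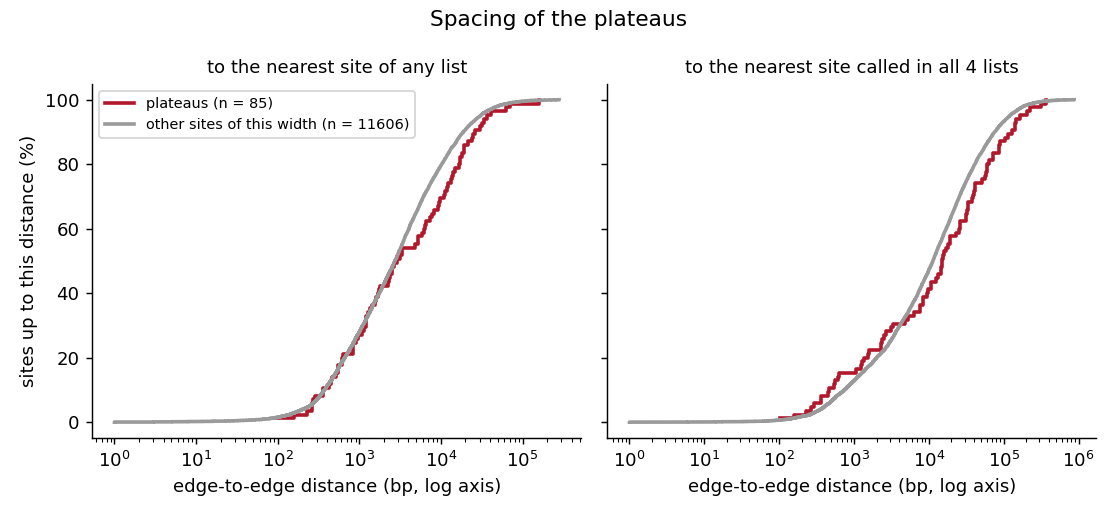
Cumulative share of sites against the distance in bp (log axis) to the nearest site, for the 85 plateaus and the other sites of this width. For sites of any list, on the left, the curves run together at short distances and part at long ones, where 30.6% of the plateaus and 20.4% of the others have no site of any list within 10 kb.

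The nearest site called in all 4 lists was usually stronger than the plateau. This was so at 67 of 85 plateaus (78.8%), against 52.4% at the other sites of this width. Mean signal entered the rule as the denominator of the ratio, and the plateaus had a median percentile of 19.2. The part of the choice and of their own low signal in the share with a stronger neighbour was not tested. The neighbours had a median percentile of 58.1 and a median highest ratio of 4.40, against 50.4 and 4.88 for the neighbours of the other sites of this width. Plateaus seldom stood side by side: 1 pair were direct neighbours among the sites called in all 4 lists, and no run was longer than 2. The closest pair, chr12:48716576-48720386 and chr12:48793562-48801183, was 73175 bp apart, and the next plateau on that chromosome, chr12:49152845-49156008, lay a further 351661 bp on.

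The plateaus were spread over 23 of the 25 chromosomes. Chromosome 7 held the most, 9 of them, 1.33% of its sites of this width. The share was higher on chromosome 22 (6 plateaus, 1.69%) and chromosome 18 (6 plateaus, 1.47%). Chromosomes 13 and 23 held none. Near the ends of chromosomes, taken as the outermost site, the share depended on the libraries used: 10 plateaus (11.8%, exact 95% binomial interval 5.79 to 20.6%, counting error only) lay within 2 Mb, against 11.6% of the other sites of this width. Among the sites that met the rule without FB:dnAP-1 replicate 2 it was 21.5% against 12.3%, and without FB:dnAP-1 replicate 1 it was 17.8% against 11.9%. A limit of 2.8 gave 16.2% against 11.5%. Within 1 Mb the shares were 9.41% and 7.25%, and within 5 Mb 25.9% and 22.7%.

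Relative to all sites, H3K27ac signal at the plateaus lay lower in both FB:dnAP-1 libraries than in both CTRL libraries. Log2 mean signal, with each library centred on its median over the 17511 sites called in all lists, had a plateau median of -0.81 and -0.86 in replicates 1 and 2 of FB:dnAP-1, against -0.33 and -0.42 in CTRL replicates 1 and 2. No library of one group reached those of the other, and the group means of -0.83 ± 0.04 and -0.37 ± 0.06 (SD, n = 2 each) differed by -0.46. With 2 libraries against 2, an exact permutation test allows no p below 0.333, so this difference has no test. At the other sites of this width the libraries had medians of -0.05 and -0.06 in the FB:dnAP-1 group and of -0.05 and -0.05 in the CTRL group. Site by site, the median difference at the plateaus was -0.45 (interquartile range -0.76 to -0.16), against -0.03 at the other sites of this width. The gap between both, -0.42, does not depend on how the libraries were centred. The difference itself does: in steps with no centring, which undoes the authors' scaling, the plateau median was 0.50. Quantile normalization brought the difference to -0.21 and the gap to -0.23.

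Mean signal is the denominator of the ratio that chose the plateaus, so the selection and the difference share a measure. The limit was met by fewer sites in the FB:dnAP-1 lists. The part of the selection in the difference was not tested. Sites that met the limit in both CTRL lists but not both FB:dnAP-1 lists (589) had a median difference of -0.38, those with the reverse pattern (215) one of -0.09, and those with neither (10802) one of -0.01. The order by number of flat lists was 0.04, -0.17, -0.25 and -0.33 for 0 to 3 lists, and -0.45 for the plateaus.

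Of the 85 plateaus, 70 had a negative difference (82.4%, against 52.7% of the other sites of this width). In 53 of them both FB:dnAP-1 libraries lay below both CTRL libraries, where 27.4% of all sites called in 4 lists and 26.7% of the other sites of this width did so. In 6 they lay above, where 21.6% and 20.6% did. The 53 make up 62.4% of the plateaus. No plateau passed an adjusted p of 0.05 in the limma fit over all sites, where 0.0171% of all sites (0.0172% of the other sites of this width) were called lower and 0% higher. The smallest adjusted p of a plateau was 0.0530. At an unadjusted limma p under 0.05, 33 plateaus were lower and 3 higher, against 10.5% and 6.73% of all sites, and 9.36% and 6.69% of the other sites of this width. In the weakest 25%, 36.2% of the plateaus and 22.4% of the others were lower at this limma p. The fit called 15 plateaus with the replicate number as a block (2.39% of all sites), 6 with an intensity trend (1.39%) and 3 on total signal (0.742%), all lower. In steps with no centring it called 28 higher (71.4% of all sites). Since mean signal entered the rule, these counts are not read as a result.

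Weak sites had negative median differences whether or not they were flat. In the weakest 25% of all sites of this width, by mean log2 signal and a split chosen after the values were seen, 47 plateaus had a median difference of -0.45 against -0.31 at the others. In the next 2 classes of 25% the medians were -0.40 at 20 plateaus against -0.07, and -0.05 at 6 plateaus, of which 3 were negative, against 0.08. In the strongest 25% they were -1.02 at 12 plateaus against 0.21. The gap was thus narrow in the weakest class and in the one just above the middle, and widest in the strongest. The 9 plateaus in the strongest 10% by this measure had a median of -1.14, against 0.27 at 1160 others. By the median percentile over the lists only 5 plateaus were above the 90th. The 9 include chr24:12562158-12566070 at percentile 81.0 and chr3:59421159-59424110 at 83.9, with differences of -1.59 and -1.46. In 7 of the 9 both FB:dnAP-1 libraries were below both CTRL libraries, and 1 of the 9 was higher. Below were 8.71% of the others in that 10% and 27.4% of all sites called in 4 lists. Mean signal entered the rule, the split and the difference, so these contrasts are a description and were not tested.

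**Figure D5:**
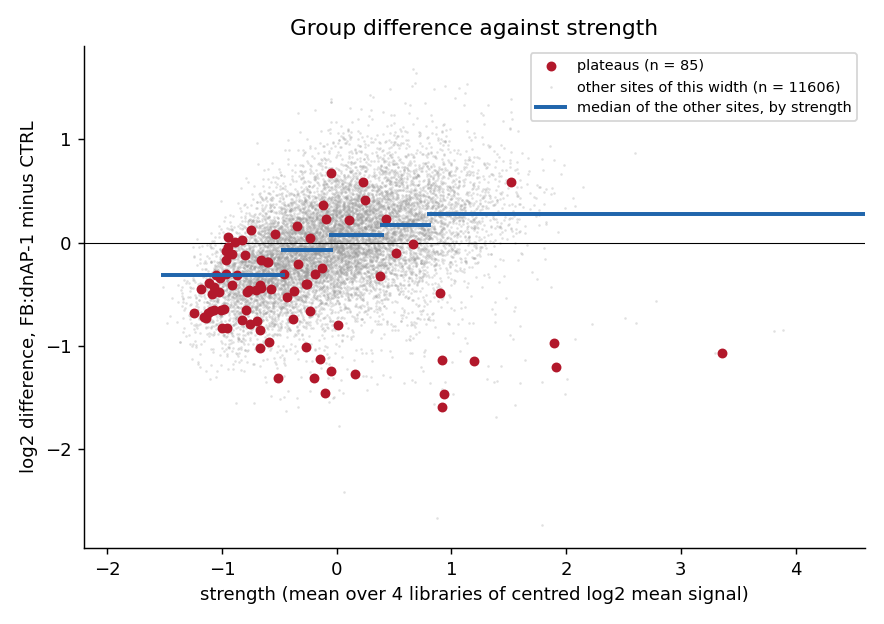
Log2 difference in centred mean signal, FB:dnAP-1 minus CTRL, against the strength of each site of this width, with the 85 plateaus marked. Plateaus in the strongest 10% have a median of -1.14 where the other sites of that 10% have one of 0.27. Both axes use mean signal, which entered the rule.

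The plateau with the largest negative difference was chr24:12562158-12566070. Its mean signal was 8.32 and 10.1 in the FB:dnAP-1 libraries, against 29.6 and 25.97 in the CTRL libraries, a log2 difference of -1.59 ± 0.24 (SE). The groups did not overlap, and the nearest site called in all lists, 3.167 kb away, had a difference of -1.56. At chr3:59421159-59424110 the libraries held 11.3 and 8.38 in FB:dnAP-1 and 29.7 and 24.4 in CTRL, a difference of -1.46. At chr8:28560094-28563626 they held 4.77 and 4.72 in FB:dnAP-1 and 14.0 and 12.2 in CTRL, also -1.46. There the neighbour, 364 bp away, had a difference of -1.42, whereas the neighbour of the plateau on chromosome 3, much further off at 31.558 kb, had one of -0.11.

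In all, 14 plateaus had a difference below -1 (16.5%, against 1.52% of the other sites of this width). They lay on 9 chromosomes, 6 of them were in the strongest 10%, and the groups did not overlap at any of the 14. Each had a lower value than its nearest site called in all lists, and those neighbours had a median of -0.32 and ran between -1.56 and 0.56. The 14 were picked for a low value, and 2.12% of all sites called in 4 lists lay below -1. A lower value than the neighbour and groups that do not overlap are thus linked to the pick. No share of either is given here for the other sites below -1, so neither count is read as a result. The strongest plateau, on chromosome 8, had a difference of -1.06, and chr12:3206169-3209274 one of -1.20, with neighbours at -0.88 and -0.29. The strong plateau on chromosome 20 had one of -0.97 and lay 1.068 kb from a site at -2.15.

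In 5 plateaus FB:dnAP-1 libraries were below CTRL libraries also when signal was counted in steps with no centring, the scale on which most sites were higher in FB:dnAP-1. This is 5.88% of the plateaus, against 0.586% of the other sites of this width and 0.948% of all sites called in 4 lists. Mean signal entered the rule, so this count is not read as a result. At chr24:12562158-12566070 the mean was 12.2 and 14.9 steps in the FB:dnAP-1 libraries, against 23.5 and 18.8 steps in the CTRL libraries. At chr3:59421159-59424110 it was 16.6 and 12.3 steps against 23.6 and 17.7 steps. The other 3 were chr3:56827479-56832950 (15.9 and 15.6 steps against 17.3 and 18.7), chr8:28560094-28563626 (7.01 and 6.94 against 11.1 and 8.84) and chr9:3238854-3243321 (6.02 and 5.08 against 6.77 and 7.44). At these 3 the groups did not overlap on this scale either.

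A higher signal in the FB:dnAP-1 libraries was the exception. At chr8:44712546-44716611 mean signal was 10.5 and 10.1 in the FB:dnAP-1 libraries, against 6.96 and 6.02 in the CTRL libraries, a difference of 0.68 ± 0.23 (SE). It was 10.9 and 13.4 against 9.49 and 6.90 at chr3:25812018-25814853 (difference 0.58), and 28.7 and 30.3 against 20.3 and 19.3 at chr11:27700382-27703215 (difference 0.58). The groups did not overlap at any of the 3, which were picked for a high value. Of all sites called in 4 lists, 21.6% had both FB:dnAP-1 libraries above both CTRL libraries. The plateau on chromosome 11 is the only one of the strongest 10% with a positive difference.

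No plateau held an open chromatin region (OCR) of the study's supplementary table, of which 1999 rows were used here. By its legend, that table lists only OCRs active in Epi/FBs that overlap candidate tissue regeneration enhancer elements. The table was held in shortened form and no share over other sites was taken, so this is a lookup, and nothing is read from the 0. Positions there were taken as GRCz11, though no build is named, and 74 plateaus lay on the chromosomes the rows cover. Within 20 kb, a window chosen after the values were seen, 3 plateaus had an OCR with an assigned gene. The one assigned to mir142b, a microRNA gene known from blood cells, lay 1.504 kb from chr15:15368549-15373239, where mean signal was 4.77 and 5.85 in the FB:dnAP-1 libraries, against 13.8 and 11.4 in CTRL libraries. That plateau had a difference of -1.24 with no overlap between groups. The one assigned to rab4b, a small GTPase of endosome recycling, lay 1.909 kb from chr15:8858211-8863983, with 7.51 and 6.57 in the FB:dnAP-1 libraries against 8.13 and 4.88 in the CTRL libraries, and the one assigned to scaper lay 5.328 kb from chr25:32534425-32540639, with 5.25 and 2.54 against 4.81 and 4.29. At these last plateaus the groups overlapped.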

How the data were processed

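H3K27ac CUT&Tag was done on nonCMs at 7 dpa in 2 FB:dnAP-1 and 2 CTRL libraries, grouped by their labels. For these files the authors used cutadapt 2.7 for trimming, Bowtie2 2.2.5 for alignment to GRCz11, SAMtools 1.9 (versions per the submitters' processing notes) and Picard to drop unmapped reads and duplicates, ChIPseqSpikeFree for a scaling factor, and SEACR at 0.02 (the methods name MACS2 too). The 6 columns are those of SEACR, with 1 list per library. The deposited lists hold signal (coverage): the sum over a peak, its maximum and the stretch that holds it. Coordinates are counted from 1. Peaks overlapping by 1 bp were merged. Percentiles of mean signal were taken within each list over the sites called in all 4 and their median used. Log2 mean signal was centred per library and fitted with limma 3.58.1 (R 4.3.3) over 17511 sites, with Benjamini-Hochberg adjustment. The count test of the methods could not be run, since the lists hold signal and not reads. Library medians of 2 against 2 allow no exact permutation p below 0.333. The rule and the fit were run on simulated data as a check of the code only. Planted ratios lay away from the limit and the noise was drawn from the spread of the fit itself. The runs thus cannot show how the rule does near its limit or how well the fit suits these data.

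Sites named are the 3 flattest, strongest, weakest, most isolated, and largest differences in each direction, those next to the limit, the closest neighbouring pair and those near an OCR. Alternatives were other limits, merging, measures, scalings, a replicate block, an intensity trend and each library left out. Maxima shifted by 1 step, distances within a list, the split by strength and counts of non-overlapping sites were added after seeing the data. The members and lists were chosen with earlier results of these data known. No sequence is printed and no nearest gene was assigned, as a GRCz11 genome and annotation were not used here. Tables were made in Python 3.11.15 (pandas 2.3.3, numpy 2.4.6, scipy 1.17.1), and plots with matplotlib 3.10.9.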

Additional observations from a re-analysis of the deposited data

How the results depend on the processing

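The number of plateaus depended on the rule: 9 at a limit of 2.2, 377 at a limit of 2.8, 11 with the mean taken over the merged width, and 173 to 233 with any 1 of the 4 libraries left out, against 85. Their signal relative to the other sites of this width was 0.392 for the maximum and 0.959 at a limit of 2.2, against 0.691, and 0.650 to 0.718 with a library left out. The median distance to the nearest site was 1.05 times that of the others, 1.32 times for sites called in all 4 lists, 4.11 at a limit of 2.2, 1.55 at 2.8, 1.47 with peaks within 500 bp merged, and 1.14 to 1.57 with a library left out. The share near chromosome ends was 11.8%, 25.9% within 5 Mb, 0% at a limit of 2.2, and 14.3 to 21.5% with a library left out (11.7 to 12.3% of the other sites of this width). The group difference of -0.45 became 0.50 in steps that were not centred, -0.21 after quantile normalization, -0.81 on maximum signal and -0.78 at a limit of 2.2. It ran between -0.56 and -0.36 with a library left out of the fit. These fits kept the 85 plateaus chosen with all 4 lists, whereas the ranges above chose plateaus anew. The left-out library thus still had its part in the choice. Relative to the other sites of this width the group difference kept its direction under all 14 alternatives. Some of these could not change it: the deposited scale, uncentred steps, the replicate block and the fit over this width only all returned -0.42. It was -0.23 after quantile normalization, -0.81 on maximum signal and -0.75 at a limit of 2.2, against -0.42. With a library left out and the same 85 plateaus it was -0.53 to -0.34. limma called 0 plateaus, where 0.0171% of all sites were lower and 0% higher. In steps that were not centred it called 28, all higher, where 71.4% of all sites were. On the maximum, which the rule capped, it called 47, all lower, where 9.76% of all sites were lower and 1.73% higher. It called 3 on total signal and 6 with an intensity trend, all lower, where 0.742% and 1.39% of all sites were. Plateaus with both FB:dnAP-1 libraries below both CTRL libraries numbered 53, where 27.4% of all sites did so. In steps that were not centred they numbered 5, where 0.948% of all sites did so. With a library left out and the same 85 plateaus, a looser condition, they numbered 56 to 67, where 39.5 to 40.8% of all sites did so.

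With the replicate number as a block, limma called 15 plateaus, all lower, among 419 lower and 188 higher over all sites, and the median difference stayed at -0.45. Libraries of the same number did not deviate together from site to site (r = 0.002 over 17511 sites). Each library was centred first, so this check cannot show a shift shared by all sites. Whether the numbers pair the libraries is therefore not known. Maxima of 5 to 10 steps, as in many plateaus of the CTRL lists, limit how well the ratio is known.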
